A study of Mus musculus with 6 samples.

Results

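The genes of calcium, sodium, HCN and leak channels were examined in RNA from the mouse suprachiasmatic nucleus (SCN), the hypothalamic centre that times circadian rhythms. Genes were taken by symbol: the Cacna1, Cacna2d, Cacnb and Cacng subunits of voltage-gated calcium (CaV) channels, the Scn subunits of voltage-gated sodium (NaV) channels, the Hcn channels, Nalcn with Unc79 and Unc80, and the Ryr, Itpr and Trpc channels. These were 60 of the 17645 genes listed in at least 1 library, in 12 classes by role, and 56 of them were listed in all 6 libraries. Counts were high enough to test 55. The other 5 (Cacna1f, Scn4a, Scn10a, Cacng1 and Cacng6) had at most 27 summed counts in the 3 libraries of either group.

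The groups came from a study of the nuclear receptors REV-ERBα and REV-ERBβ, encoded by Nr1d1 and Nr1d2, which repress transcription as part of the circadian clock. The series title names a knockout of both receptors in GABAergic neurons, and 3 libraries are titled r1r2V (replicates 1, 4 and 5) and 3 are titled V (replicates 2, 3 and 4). Here r1r2V was read as the knockout and V as the group without it. All mice were C57BL/6 females taken in the dark at ZT 12 to 14, the start of the night by zeitgeber time, which counts hours from lights on. Each library held pooled RNA of 2 needle-punched SCN. Neither the Cre driver, the deleted exons and the alleles of the V mice nor the ages are given in those labels. Nor is it stated whether pools came from separate animals, so p-values measure only the spread between these samples. The punch holds cells of every type around the GABAergic neurons.

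SCN neurons fire faster by day than by night, and this rhythm rests on ion channels. NALCN passes a steady sodium leak that depolarizes the membrane, HCN channels open on hyperpolarization, CaV channels of the L and T types act below spike threshold, and NaV channels carry the spike and a persistent current. Ryanodine and IP3 receptors release calcium from the endoplasmic reticulum, and TRPC channels admit cations after receptor stimulation. In the clock, REV-ERBs hold down Arntl and Nfil3, among other genes, through a DNA element built on the letters AGGTCA.

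Total expected counts, the authors' estimates of reads per gene, ran from 15729603 to 17780928 per library. The SCN markers Avp, Vip, Six6, Lhx1, Nms and Prok2 were listed in all 6 libraries. Replicate 5 of r1r2V had the lowest Vip, at 7.87 FPKM (fragments scaled by transcript length and library size) against 35.4 to 59.3 in the other 5. Lhx1, Nms and Prok2 were also lowest in that library, and Six6 was not. Avp was highest there, at 725 FPKM against 304 to 675 in the other 5. Nr1d1 was higher, not lower, in the libraries labelled r1r2V (log2 fold change 1.5, adjusted p = 8.24e-05, edgeR), as was Nr1d2, short of the threshold (0.47, adjusted p = 0.0553). Gene totals include exons outside a deletion and do not check it, so the direction of every difference below rests on the sample titles.

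None of the 55 channel genes passed the adjusted threshold of 0.05 between the libraries labelled r1r2V and V, where 60 of 14438 genes did (0.416%). The lowest adjusted p among them was 0.579, for Cacna1s (edgeR's quasi-likelihood test, p-values adjusted by Benjamini-Hochberg over all genes). Fitted log2 fold changes ran from -0.31 for Scn11a to 0.45 for Cacna1s, with 27 above and 28 below 0 and a median of -0.01, beside 0.01 over all genes tested. For 47 of the 55 (85.5%) the 95% interval of the fold change lay inside 1.5-fold in either direction, beside 80.3% of all genes, and for all 55 it lay inside 2-fold. At an unadjusted p below 0.05 stood 3 channel genes (5.45%), Cacna1s with a higher level and Cacnb1 and Trpc4 with lower ones, against 7.58% of all genes. DESeq2 gave 2 (3.64%, against 5.42% of all genes) and limma-voom 3 (5.45%, against 7.63%) at that level. Neither called any channel gene after adjustment. Without r1r2V replicate 1 the edgeR number was 9 (16.4%, against 13.7% of all genes), and without replicate 5 it was 11 (20%, against 11.2%). Without V replicate 2, 3 or 4 it was 0, 1 and 0, where the share of all genes also fell, to 4.55%, 5.70% and 4.24%. Again none passed the adjusted threshold. In CPM, read counts scaled to a common library size, the groups did not overlap for 6 of the 55 (10.9%), 2 higher and 4 lower in r1r2V, against 14.5% of all genes. In bulk tissue, fewer cells of a type and less RNA per cell cannot be told apart.

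**Figure D1:**
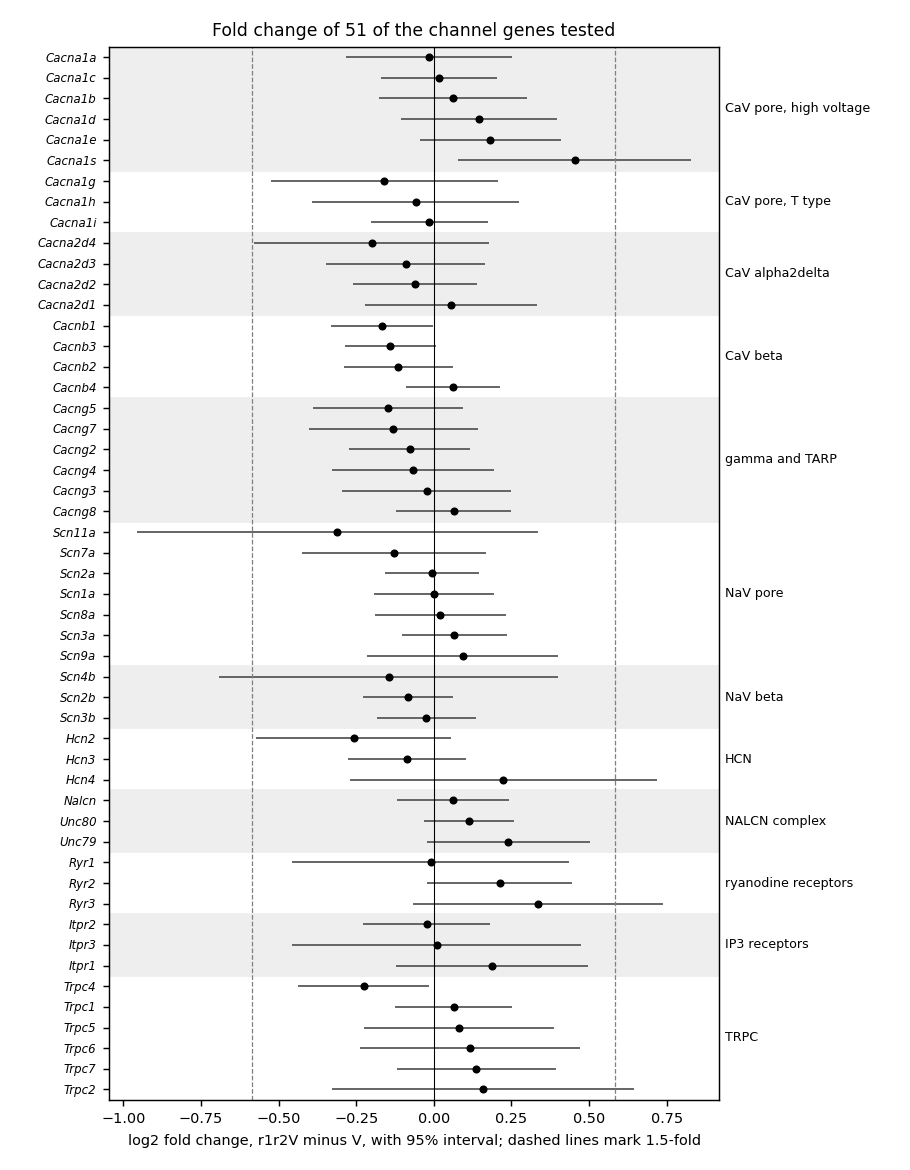
Log2 fold change (r1r2V minus V, edgeR) of 51 of the 55 tested channel genes on the x axis, grouped by class, with points for estimates, bars for 95% intervals and dashed lines at 1.5-fold. The estimates lie between -0.31 (Scn11a) and 0.45 (Cacna1s), and most intervals stay between the dashed lines.

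The promoters were searched for the core of the REV-ERB element and for 2 other circadian elements. Sites further from a transcription start were not searched. RefSeq windows of 300 bases (250 before to 50 after a transcription start, GRCm38.p6) were found for 45 of the 60 genes, 56 windows in all. AGGTCA, on either strand, was in 7 of the 56 windows (12.5%), those of Cacna1f, Cacng8, Hcn2, Ryr2, Scn1a, Scn8a and Unc80, and in 16.3% of all 32851 windows. The longer TAGGTCA, which contains AGGTCA, was in 1 channel window (1.79%), that of Scn1a, and in 2.61% of all windows. The E-box CACGTG, the site of the clock activators, was in the window of Itpr3 alone (1.79%, against 7.15% of all), and the cAMP response element TGACGTCA was in none (against 1.79% of all). A match describes letters in the window and is no evidence of binding. The stretches below show the Scn1a match beside those of Arntl and Nfil3, known REV-ERB targets, then AGGTCA in other channel promoters and the E-box of Itpr3. The Scn8a and Itpr3 windows belong to transcription starts inside the genes, whose first bases are at 100869863 and 27057002. Each is 30 bases of the gene's strand, 5′ to 3′. Each stretch has the motif in capitals, read as TGACCTA or TGACCT where it lies on the opposite strand.
Scn1a, chr2:66440806-66440835, minus strand: gtaagtctgtcTAGGTCAagtgtaggagac
Arntl, chr7:113207530-113207559, plus strand: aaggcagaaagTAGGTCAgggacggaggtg
Nfil3, chr13:52981033-52981062, minus strand: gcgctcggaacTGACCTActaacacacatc
Unc80, chr1:66467847-66467876, plus strand: gagatggactgcTGACCTctttgcaagagg
Ryr2, chr13:12107045-12107074, minus strand: tccttggacttgAGGTCAggaagggcacag
Scn8a, chr15:100936088-100936117, plus strand: ggaccattacaaAGGTCAcccaagccactc
Hcn2, chr10:79716454-79716483, plus strand: caaggggctgacTGACCTtgagcctgcttg
Itpr3, chr17:27057207-27057236, plus strand: ggggcgcgggtgCACGTGggagccgcggcg

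Among these genes, Arntl, the gene of the clock activator BMAL1, rose from 28.6 ± 1.19 to 47.4 ± 1.61 CPM (SD, n = 3 per group; log2 fold change 0.73, adjusted p = 0.000914, edgeR quasi-likelihood). Nfil3, a repressor of D-box genes, rose from 13.7 ± 1.25 to 28.5 ± 2.38 CPM (1.06, adjusted p = 0.000881, edgeR). Scn1a, which encodes the sodium channel NaV1.1, had FPKM values of 12.1, 13.1 and 12.7 in V and 13.4, 10.8 and 13.4 in r1r2V. Its log2 fold change was 0.00 with a standard error of 0.09, and the 95% interval of the fold change ran from 0.87 to 1.14. The 3 genes share the letters TAGGTCA near a transcription start, and the Scn1a groups overlapped where those of the clock genes passed the test.

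The pore-forming subunits of high-voltage-activated CaV channels were led by Cacna1b, the N-type pore that admits calcium for transmitter release. In per-length units its FPKM values were 11.7, 11.7 and 11.5 in V and 14.5, 11.7 and 10.1 in r1r2V. The 3 V libraries lay together, and the r1r2V libraries stood above, level with and below them. Cacna1b made up 32.6% of the summed FPKM of the class over the 6 libraries, followed by Cacna1a (P/Q type, also at nerve terminals) with 23.1%, Cacna1e (R type) with 20.1%, Cacna1d (L-type CaV1.3) with 12.3% and Cacna1c (L-type CaV1.2) with 10.3%. Cacna1s and Cacna1f, the L-type pores of skeletal muscle and of the retina, made up 1.53% and 0.07%.

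Fitted fold changes were close to 1 for Cacna1a (0.99, 95% interval 0.82 to 1.19), Cacna1c (1.012, 0.89 to 1.15) and Cacna1b (1.04, 0.88 to 1.23). Cacna1d was at 1.11 (0.93 to 1.32) and Cacna1e at 1.13 (0.97 to 1.33), and without r1r2V replicate 1 their log2 fold changes went from 0.14 to 0.0243 and from 0.18 to 0.0687. Of the 6 tested pores, 5 had a positive log2 fold change, with a median of 0.10, but without r1r2V replicate 1 only 3 were positive and the median was -0.01. Exons of Cacna1d overlap those of Chdh on the opposite strand over 589 bases, and the sources used here do not state whether counting was stranded.

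Cacna1s (Entrez gene 12292, chromosome 1, 136052806 to 136119822) was the channel gene with the lowest p. Its FPKM values were 0.45, 0.51 and 0.44 in V and 0.61, 0.65 and 0.65 in r1r2V, so every r1r2V library lay above every V library. The level was low in all 6 libraries, resting on 146 counts in V and 202 in r1r2V. Exons of Cacna1s overlap those of the antisense gene Gm37759 on the opposite strand over 1309 bases. Gm37759 was not listed in any library, which does not show whether it was expressed. The fitted fold change was 1.37 (95% interval 1.06 to 1.78), and its p was below 0.05 only before adjustment. The skeletal muscle genes Ckm and Myh1 were at or below 0.09 FPKM in every library, and the sum of 5 muscle markers, mainly Acta1, was 3.65 to 5.27 FPKM in V and 2.74 to 3.99 in r1r2V.

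The low-threshold T-type pores Cacna1g, Cacna1i and Cacna1h, which open near resting potential, made up 48.6%, 29.9% and 21.6% of their class. Cacna1g (Entrez gene 12291, chromosome 11, 94408391 to 94474400) had FPKM values of 11.4, 10.3 and 11.3 in V and 13.3, 7.71 and 8.44 in r1r2V. Replicate 1 was the highest of the 6 libraries and the other r1r2V libraries were the lowest. Cacna1h had the r1r2V libraries in the same places around V, with 4.44, 5.09 and 4.56 in V and 5.85, 3.54 and 4.11 in r1r2V. Cacna1i also had replicate 1 highest and the other r1r2V libraries lowest, with less spread, from 5.74 to 7.13 over the 6 libraries.

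The summed T-type level was 22.0, 21.9 and 22.1 FPKM in V against 26.2, 17.1 and 18.3 in r1r2V. The SD of this sum was 0.127 in V and 4.96 in r1r2V. The sum overstates the contrast in spread, because deviations cancelled in V. Cacna1g was lowest of V in replicate 3, where Cacna1h and Cacna1i were highest of V. For single pores the SD ran from 0.16 (Cacna1i) to 0.61 (Cacna1g) in V. In r1r2V it ran from 0.77 (Cacna1i) to 3.02 (Cacna1g). For Cacna1g the fitted fold change was 0.90 (95% interval 0.69 to 1.15; adjusted p = 0.813, edgeR quasi-likelihood). Without r1r2V replicate 1 its log2 fold change went from -0.16 to -0.43, with an adjusted p of 0.0877 by the same test. Across all fits that left out 1 library, this was the only channel gene with an adjusted p below 0.1, and it did not reach 0.05. That fit gave lower p-values for genes of all kinds: 13.7% of all genes had an unadjusted p below 0.05, against 7.58% over the 6 libraries (edgeR). The share of all genes at an adjusted p below 0.1 in that fit is not given here. Of the 3 pores, none had a positive log2 fold change over the 6 libraries and 2 had one without r1r2V replicate 4. Exons of Cacna1h and Tpsg1 share 158 bases on opposite strands.

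The intracellular β subunits, which bring CaV pores to the membrane, were led by Cacnb3 with 42.5% of the class, followed by Cacnb1 with 27.1%. Cacnb1 (Entrez gene 12295, chromosome 11, 98001508 to 98023034) had FPKM values of 24.3, 23.9 and 24.6 in V and 23.7, 19.7 and 20.9 in r1r2V. All r1r2V libraries lay below all V libraries, replicate 1 by a narrow margin. The fitted fold change was 0.89 (95% interval 0.79 to 0.998; adjusted p = 0.647, edgeR). Cacnb3 had 36.5, 36.9 and 39.7 in V and 35.9, 32.7 and 33.5 in r1r2V, again without overlap, at a fold change of 0.91 (0.82 to 1.004; adjusted p = 0.660, edgeR). Cacnb2 (0.92) and Cacnb4 (1.04) were the other members, and the summed β level was 87.7 ± 1.60 FPKM in V and 80.8 ± 3.28 in r1r2V (SD, n = 3 each).

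Cacnb1 lies 0.74 Mb from Nr1d1, one of the targeted genes, and Cacna1g 4.29 Mb from it. Cacng4 and Cacng5, on the same chromosome at 8.96 and 9.10 Mb, had log2 fold changes of -0.07 and -0.15. On the chromosome of Nr1d2, Cacna2d3 (10.67 Mb away), Cacna1d (11.80 Mb) and Nalcn (105.04 Mb) had -0.09, 0.14 and 0.06. None of these passed the threshold. Of all genes tested, 28 of 514 were called on chromosome 14, that of Nr1d2, and 6 of 1150 on chromosome 11, that of Nr1d1. Over all chromosomes 60 of 14438 were called. For genes close to a targeted gene, the deletion and other sequence linked to the targeted allele cannot be told apart.

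The extracellular α2δ subunits, which raise the number of CaV channels at the surface, were shared between Cacna2d1 (40.6% of the class), Cacna2d2 (38.3%) and Cacna2d3 (20.3%), with Cacna2d4 at 0.83%. Cacna2d1 had FPKM values of 24.0, 32.2 and 25.1 in V and 24.8, 27.1 and 32.1 in r1r2V, and the groups overlapped over the whole range. Its fitted fold change was 1.04 (95% interval 0.86 to 1.26). Cacna2d4 had 0.61, 0.62 and 0.56 in V and 0.55, 0.53 and 0.48 in r1r2V, without overlap, at a fold change of 0.87 (0.67 to 1.13).

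The Cacng genes encode γ subunits, and Cacng2, Cacng3, Cacng4, Cacng5, Cacng7 and Cacng8 encode the TARPs, which attach AMPA glutamate receptors to the synapse. Cacng7 made up 33.8% of the summed level of the class, and the next, Cacng2, 15.5%. Cacng7 had FPKM values of 36.6, 32.6 and 38.6 in V and 37.4, 26.4 and 34.7 in r1r2V, with r1r2V replicate 4 the lowest and the groups otherwise intermingled. Cacng5 had the largest estimate of the class, a fold change of 0.90 (95% interval 0.76 to 1.07), and its log2 fold change went from -0.15 to -0.0288 without r1r2V replicate 5. The muscle subunits Cacng1 and Cacng6 were listed at 0.25 FPKM or less in every library.

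**Figure D2:**
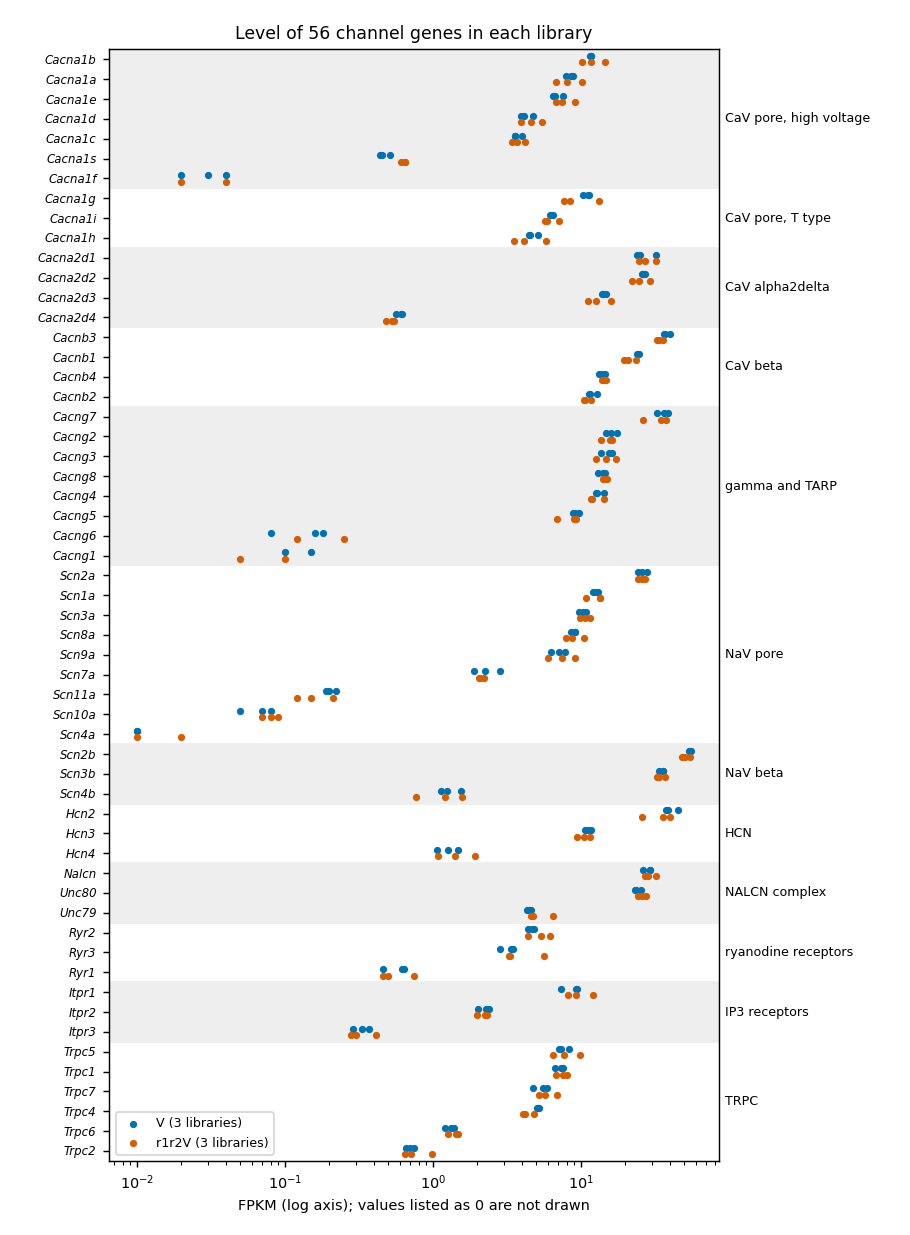
FPKM of 56 channel genes (x axis, log scale) in each of the 3 V and 3 r1r2V libraries, 1 row per gene, sorted by mean level within each class; values listed as 0 are not drawn. Scn2b stands highest of those drawn, at 48.4 to 55.6 FPKM, and the blue and orange points overlap in most rows.

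NaV pores were led by Scn2a, which encodes NaV1.2 of central neurons, with 36.1% of the summed level of the class. Its FPKM values were 25.9, 27.8 and 24.4 in V and 25.9, 24.5 and 26.9 in r1r2V, so the r1r2V libraries lay inside the V range. The fitted fold change was 1.00 (95% interval 0.90 to 1.11). Scn1a followed with 17.5% of the class, Scn3a (NaV1.3) with 14.6%, Scn8a (NaV1.6, of the axon initial segment) with 12.5% and Scn9a (NaV1.7) with 10.2%. Scn7a, a sodium sensor of glia, made up 3.09%.

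Fitted fold changes were 1.05 for Scn3a (95% interval 0.93 to 1.18) and 1.014 for Scn8a (0.88 to 1.17). Scn9a had FPKM values of 7.14, 7.79 and 6.30 in V and 7.43, 9.14 and 5.96 in r1r2V, with the highest and the lowest library both in r1r2V. Scn10a, Scn11a and Scn4a, pores of sensory neurons and skeletal muscle, were at 0.22 FPKM or less in every library. Reads of Scn1a, Scn2a, Scn3a and Scn9a, close paralogs, were in part divided between genes by the authors' estimation, since their counts were not whole in any library.

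Scn2b, a NaV β subunit that raises surface expression of the channels, had FPKM values of 54.0, 54.4 and 55.6 in V and 50.8, 48.4 and 54.9 in r1r2V, with r1r2V replicate 5 inside the V range and the other 2 below it. Its fitted fold change was 0.94 (95% interval 0.85 to 1.04). Scn3b, another β subunit, had 35.7, 33.9 and 35.9 in V and 32.8, 37.0 and 33.6 in r1r2V, overlapping, at a fold change of 0.98 (0.88 to 1.10). Scn4b, the subunit of resurgent current, was at 1.57 FPKM or less in every library, at a fold change of 0.90 (0.62 to 1.32). Its log2 fold change was -0.15 over the 6 libraries and 0.0846 without r1r2V replicate 4.

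HCN channels were mainly Hcn2, with 67.0% of the summed FPKM of the class, followed by Hcn3 with 19.8%. Hcn2 (chromosome 10, 79716634 to 79736108) had FPKM values of 37.6, 38.5 and 45.5 in V and 35.9, 25.7 and 39.7 in r1r2V. The lowest library was r1r2V replicate 4, and replicate 5 lay inside the V range.

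For Hcn2 the fitted fold change was 0.84 (95% interval 0.67 to 1.04; adjusted p = 0.683, edgeR quasi-likelihood). In r1r2V replicate 4 its share of the class was 56.9%, the lowest of the 6 libraries. Without that library its log2 fold change went from -0.26 to -0.10. Summed markers of neighbouring hypothalamic nuclei (9 of 9 genes listed) were also lowest in this library, at 1732 FPKM, against 2255 and 3590 in the other r1r2V libraries and 2926 to 3129 in V. Oxt alone held 1096 FPKM of the sum in this library. Oxt, Pmch, Pomc and Sst were each lowest there, and Hcrt, Trh, Crh and Agrp were neither lowest nor highest. Gal was highest there, at 139 FPKM. Single markers were uneven in other libraries too, which the similar V sums do not show. In V, Pomc was at 5.81, 328 and 24.3 FPKM and Pmch at 19.1, 331 and 35.8, and Pmch reached 896 in r1r2V replicate 5. The part of these markers in the Hcn2 values was not tested. Hcn3 was at a fold change of 0.94 (0.82 to 1.07) and Hcn4, the slow subunit of pacemaker tissue, at 1.17 (0.83 to 1.64). Exons of Hcn3 overlap those of Pklr on the opposite strand over 711 bases.

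The sodium leak channel Nalcn (chromosome 14, 123275678 to 123627330) had FPKM values of 29.3, 29.3 and 26.3 in V and 28.6, 32.4 and 27.1 in r1r2V, and the groups overlapped. Its fitted fold change was 1.04 with a 95% interval of 0.92 to 1.18. Unc80, the scaffold that joins NALCN to UNC79, had 23.2, 25.5 and 23.7 in V and 27.7, 25.8 and 24.3 in r1r2V, at a fold change of 1.08 (0.98 to 1.195). Per length, Unc79 stood far below its partners, at 8.28% of the summed level against 49.1% for Nalcn and 42.6% for Unc80. Unc79 had 4.31, 4.63 and 4.49 in V and 6.51, 4.71 and 4.59 in r1r2V, with replicate 1 well above the other 5 libraries. The groups did not overlap in CPM but did in FPKM. Its fold change was 1.18 (0.98 to 1.42; adjusted p = 0.665, edgeR), and without r1r2V replicate 1 its log2 fold change went from 0.24 to 0.07.

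**Figure D3:**
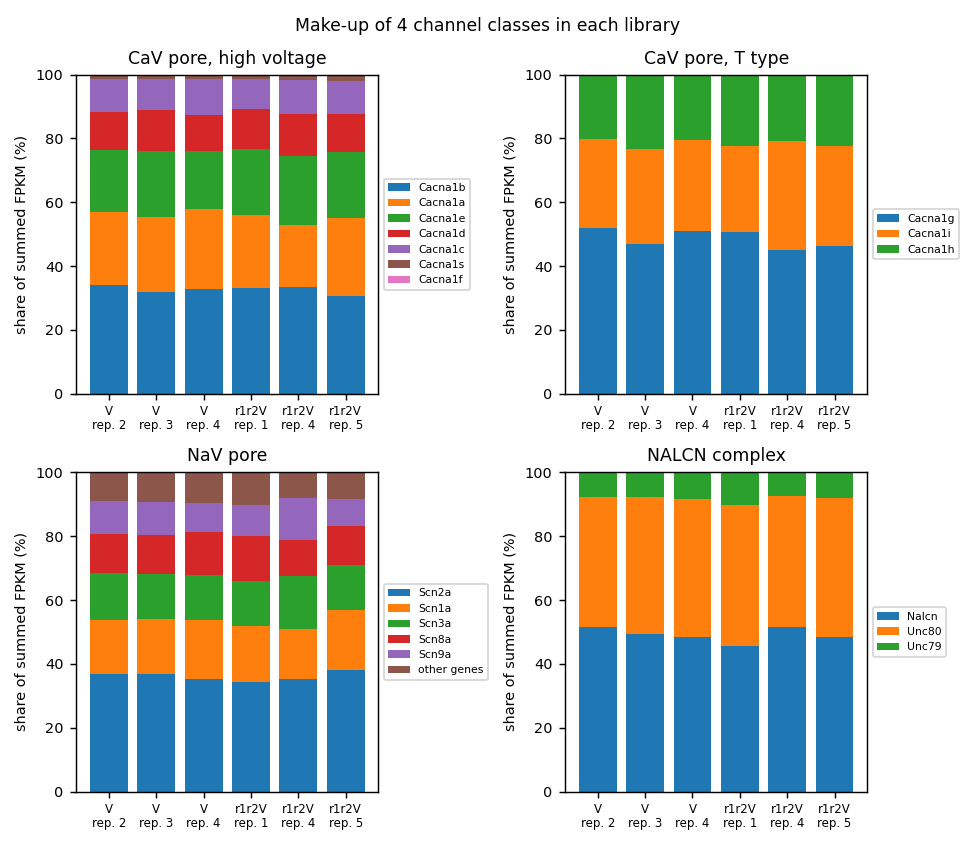
Share of the summed FPKM (y axis, percent) held by each gene of 4 channel classes, with 1 stacked bar per library; the less abundant NaV pores are drawn together. Cacna1b, Cacna1g, Scn2a and Nalcn are the largest segments over the 6 libraries, and the order of the main segments differs little between bars.

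Of the ryanodine receptors, Ryr2 and Ryr3 made up 54.6% and 39.2% of the class and Ryr1, the form of skeletal muscle, 6.27%. Ryr3 had FPKM values of 2.82, 3.39 and 3.45 in V and 5.59, 3.25 and 3.31 in r1r2V. Replicate 1 of r1r2V alone lay above the V libraries. The fitted fold change was 1.26 (95% interval 0.95 to 1.67), and the log2 fold change went from 0.33 to 0.05 without that library. Ryr2 had 4.39, 4.82 and 4.67 in V and 6.19, 4.41 and 5.40 in r1r2V, at a fold change of 1.16 (0.98 to 1.36), and its log2 fold change went from 0.21 to 0.10 without replicate 1 and to 0.33 without replicate 4. Ryr1 was at 0.99 (0.73 to 1.35). Exons of Ryr3 overlap those of Aven on the opposite strand over 916 bases.

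IP3 receptors were mainly Itpr1, the form of central neurons, with 78.2% of the class, then Itpr2 with 18.9% and Itpr3 with 2.85%. Itpr1 had FPKM values of 7.38, 9.35 and 9.26 in V and 9.31, 8.15 and 11.99 in r1r2V, overlapping, at a fold change of 1.14 (95% interval 0.92 to 1.41). Its log2 fold change went from 0.19 to 0.0087 without r1r2V replicate 5. Itpr2 was at 0.98 (0.85 to 1.13). Itpr3, whose promoter holds the E-box printed above, was at 1.006 (0.73 to 1.39) and at 0.41 FPKM or less in every library.

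The TRPC class was spread over Trpc5 (25.3% of the summed level), Trpc1 (23.8%), Trpc7 (18.4%) and Trpc4 (15.5%), among others. Trpc4 (chromosome 3, 54155584 to 54318471), which forms receptor-operated cation channels with Trpc1 and Trpc5, had FPKM values of 5.06, 5.20 and 5.10 in V and 4.85, 4.08 and 4.18 in r1r2V. All r1r2V libraries lay below all V libraries. The fitted fold change was 0.85 (95% interval 0.74 to 0.99; adjusted p = 0.618, edgeR quasi-likelihood). Trpc1, Trpc5, Trpc6, Trpc7 and Trpc2 had positive log2 fold changes, from 0.06 for Trpc1 to 0.16 for Trpc2 (-0.0352 without r1r2V replicate 1), and none passed the threshold. Trpc5 had 8.35, 7.37 and 7.11 in V and 7.63, 9.91 and 6.51 in r1r2V, with the highest and the lowest library in r1r2V. Trpc2 shares 2803 exonic bases with Xntrpc on the same strand, so its value is uncertain.

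Channel genes varied more among the r1r2V libraries than among the V libraries. The SD of log2 CPM was larger in r1r2V for 45 of the 55 (81.8%, against 71.8% of all genes), with a median of 0.196 against 0.0891 in V (0.131 against 0.0803 over all genes). The highest library was r1r2V replicate 1 for 22 of the 55 (40.0%, against 20.2% of all genes). These genes are long, with a median transcript length of 7115 bases against 2951 over all genes. Among transcripts of at least 8000 bases, that library was the highest for 15 of 22 channel genes (68.2%) and for 47.5% of 634 genes of all kinds. Its median deviation from the V mean at that length was 0.24 for the channel genes and 0.13 for all genes, in log2 CPM. By role, it was the highest library for 20 of the 37 genes of channel pores and the NALCN complex, and for 2 of the 18 auxiliary subunits. These roles also differ in length: no auxiliary subunit reached 8000 bases, the longest being Cacnb4 at 7775. The counts by role therefore do not separate role from transcript length. The lowest library was r1r2V replicate 4 for 21 of the 55 (38.2%, against 24.8%). The part of transcript length in single genes was not tested.

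**Figure D4:**
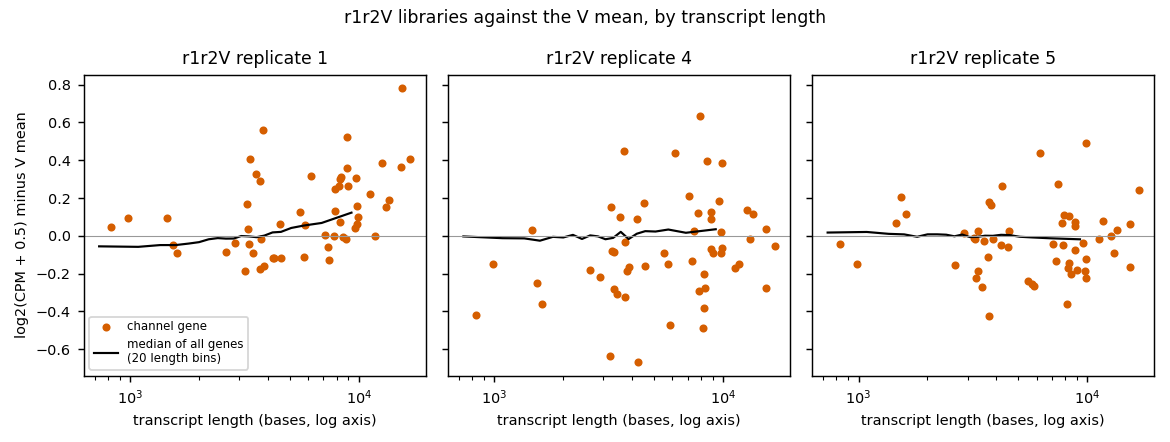
Deviation of each r1r2V library from the V mean, in log2(CPM + 0.5), against transcript length in bases (log axis), with points for the 55 channel genes and a line for the median of all genes in 20 length bins. In replicate 1 the line climbs with length and channel genes of at least 8000 bases have a median of 0.24, while in replicates 4 and 5 the line stays near 0.

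Genes that act on these channels were followed in 8 lists holding 96 genes, of which 92 were listed and 89 tested. The lists were chosen with earlier results of these data known, so their shares beside all genes are no test of partners as a set. By edgeR's quasi-likelihood test, 1 of the 89 (1.12%, against 0.416% of all genes) was called, higher in r1r2V, and none lower, and 11 (12.4%, against 7.58% of all genes) had an unadjusted p below 0.05. The called gene was Rrad (Entrez gene 56437, chromosome 8, 104628070 to 104631350), a small GTPase of the RGK family that binds CaV β subunits and inhibits calcium current. Its level was 20.6, 21.1 and 20.1 CPM across V against 30.9, 31.3 and 28.6 CPM across r1r2V. The groups stood well apart, with little spread in either. Rrad rose 1.47-fold (95% interval 1.31 to 1.65; adjusted p = 0.00925, edgeR quasi-likelihood), and adjusted p was 0.000441 with DESeq2. The call was lost on leaving out V replicate 2, 3 or 4, with adjusted p of 0.0849, 0.0694 and 0.0859, while the log2 fold change stayed between 0.53 and 0.59 on leaving out any 1 library (0.55 over all 6). Over all genes, calls in those 3 fits fell from 43 higher and 17 lower to 19 or 20 higher and 7 or 8 lower.

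Of the 10 tested genes in the list of small GTPases and adaptors that bind CaV, 7 had positive log2 fold changes, with a median of 0.09. The 5 other members named next were picked after their values were seen. Gem, another RGK GTPase, was at 7.67, 8.45 and 6.98 CPM in V against 10.3, 11.7 and 8.10 in r1r2V (log2 fold change 0.38, adjusted p = 0.616, edgeR). The remaining RGK members of the list lay the other way: Rem2 at 7.96, 6.82 and 7.17 CPM in V against 6.56, 5.29 and 6.41 in r1r2V, without overlap (-0.27, adjusted p = 0.683, edgeR), and Rem1, below 1 CPM in every library, at -0.36 (adjusted p = 0.849, edgeR). Stac, an adaptor of L-type channels, was at 5.19, 4.79 and 4.95 CPM in V against 6.56, 5.92 and 6.35 in r1r2V (0.33, adjusted p = 0.610, edgeR). Its homolog Stac2 lay the other way, at 12.02, 11.2 and 14.2 CPM in V against 7.89, 5.57 and 8.51 in r1r2V (-0.76, adjusted p = 0.160 with edgeR and 0.0122 with DESeq2). Stac2 lies 0.71 Mb from Nr1d1, in the same region as Cacnb1.

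**Figure D5:**
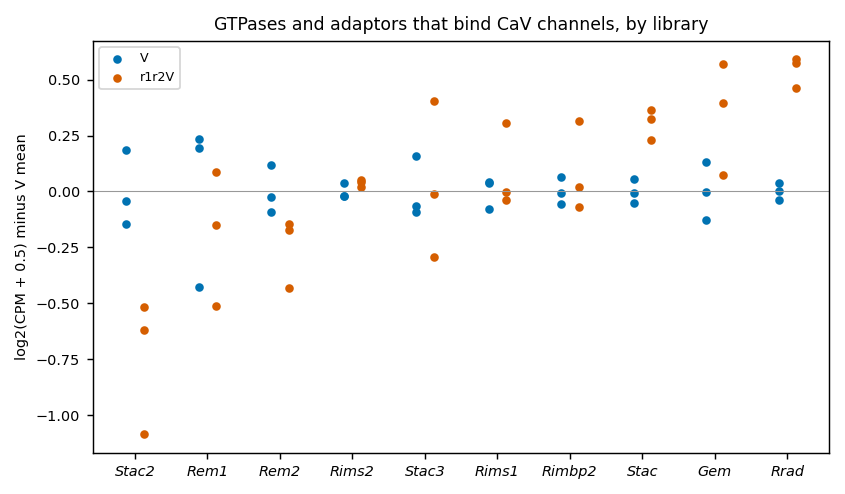
Log2(CPM + 0.5) minus the V mean for 10 GTPases and adaptors that bind CaV channels, with 1 point per library. For Rrad all 3 r1r2V points lie above every V point (28.6 CPM or more against 21.1 or less), and for Stac2 all 3 lie below every V point.

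In the other 7 lists no gene passed. The counts at an unadjusted p below 0.05 that follow stand beside 7.58% of all genes. Calcium buffers and sensors had 1 of 15: Kcnip3, a calcium sensor of the KChIP family that also represses transcription as DREAM, at 66.5, 64.8 and 60.8 CPM in V against 41.7, 51.8 and 56.7 in r1r2V (log2 fold change -0.36, adjusted p = 0.405, edgeR). Its r1r2V libraries all lay below the V libraries. Calcium pumps and exchangers had none of 12, the smallest p being that of the exchanger Slc8a2 (-0.09). Store-operated and mitochondrial entry had none of 11, led by the pore Orai1 (-0.31). NaV partners had none of 9, led by the ankyrin Ank2 (0.12). Kinases and phosphatase had 2 of 14, led by Camk2g (-0.15), which lies 2.5 Mb from Nr1d2 and so under the same limit as Cacnb1, and release-channel partners 3 of 16, led by Fkbp1b (-0.31), which stabilizes ryanodine receptors. HCN and NALCN partners had 1 of 2: Pex5l, the TRIP8b subunit that sets HCN trafficking, at 57.8, 58.1 and 65.1 CPM in V against 69.0, 68.3 and 66.2 in r1r2V (0.17, adjusted p = 0.620, edgeR).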

How the data were processed

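The authors' deposited tables give, per the file headers, an expected count, an FPKM and a transcript length for each gene of each of the 6 libraries. Expected counts deposited by the authors are estimated read numbers, and 9.88% were not whole. FPKM values deposited by the authors are scaled by length and library. The submitters' processing notes name RSEM 1.2.12, Bowtie2 2.2.5, HISAT2 2.0.4, Cufflinks 2.2.1, StringTie 1.0.4, DESeq2 and GATK, and build mm10. What each tool did, and whether strand was used, was not given in the sources used here. A gene missing from a table was taken as 0.

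Expected counts were rounded and filtered in R 4.3.3 by filterByExpr of edgeR 4.0.16 at a minimum count of 10, leaving 14438 genes. After TMM scaling, r1r2V was compared with V by edgeR's quasi-likelihood test, with p-values adjusted by Benjamini-Hochberg over all genes and a threshold of 0.05. The test was also run on simulated counts. Those had the same spread in both groups, unlike these libraries, so no conclusion is drawn from that run. Intervals come from the fit's standard error. CPM use the scaled library sizes. Levels between genes and class shares use FPKM. Precision is set by the 3 libraries per group. Replicate pairs differed beyond sampling noise (chi-square per degree of freedom from 3.85 to 13.5).

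Alternatives were DESeq2 1.42.0, limma-voom (limma 3.58.1), other size factors and filters, limma on log2(FPKM + 1) or log2(FPKM + 0.1), and leaving out each library. The channel genes, classes and partner lists were chosen with earlier results of these data known. Named channel genes were those at an unadjusted p below 0.05, all of 5 classes (T type, HCN, NALCN, ryanodine and IP3 receptors), 9 further pores, and in each class the most abundant and the most different gene. Of partners, those that passed and the smallest p per list were named by rule, and Gem, Rem1, Rem2, Stac and Stac2 after their values were seen. Genes given as shares or single values beyond these were added to complete a class. Positions are those of RefSeq on GRCm38. A few of the channel genes are counted in the totals but not reported here by name.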

Additional observations from a re-analysis of the deposited data

How the results depend on the processing

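No channel gene passed an adjusted p of 0.05 in any of the 14 alternatives or of 0.1 over all 6 libraries. At an unadjusted p below 0.05 the 55 genes gave 0 or 1 on leaving out a V library, beside 4.24% to 5.70% of all genes. They gave 9 (16.4%), 4 (7.27%) and 11 (20%) without r1r2V replicate 1, 4 or 5, beside 13.7%, 7.13% and 11.2% of all genes. Over all genes, DESeq2 called 69 higher and 40 lower, against 43 and 17 with edgeR, and leaving out each library gave 19 to 52 higher and 7 to 24 lower. All class sums and shares moved by less than the replicate spread when CPM per kilobase replaced FPKM. Signs of small estimates depended on the setting. Itpr3 was at -0.0009 with log2(FPKM + 1), filtered or not, and -0.008 with log2(FPKM + 0.1). Scn1a was at -0.0057 with limma-voom, -0.0114 with log2(FPKM + 1), filtered or not, and -0.0126 with log2(FPKM + 0.1). On leaving out each library, log2 fold changes ran from -0.17 to 0.11 for Cacna1a, -0.0768 to 0.17 for Cacna1b, -0.0537 to 0.0677 for Cacna1c, -0.28 to 0.0829 for Cacna1h, -0.11 to 0.0341 for Cacna1i, -0.0643 to 0.19 for Cacna2d1, -0.0096 to 0.40 for Hcn4, -0.0887 to 0.0371 for Itpr2 and -0.16 to 0.11 for Itpr3. They ran from -0.0213 to 0.11 for Nalcn, -0.25 to 0.12 for Ryr1, -0.0598 to 0.0915 for Scn1a, -0.0534 to 0.0393 for Scn2a, -0.42 to 0.0846 for Scn4b, -0.0921 to 0.11 for Scn8a and -0.11 to 0.20 for Trpc5. The cause was not tested. No paired analysis was possible because only the number 4 occurs as a replicate in both groups. The count of 3 libraries per group limits precision.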
